A study of Saccharomyces cerevisiae with 14 samples.

Results

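The genes described here are 33 yeast genes of glycolysis and alcoholic fermentation and their regulators, taken from a given list by gene symbol in the array annotation. They are the enzymes from the hexose kinases to the alcohol and butanediol dehydrogenases, and the regulators GCR1, GCR2 and TYE7. All 33 were found, each with 1 feature on the array and a value on all 14 arrays, among 5535 genes tested. The study was titled after transcriptional dependence on the domains of TAF1, a large scaffold protein within TFIID, the factor that brings TBP to promoters. RNA of each Saccharomyces cerevisiae strain was hybridised together with RNA of a reference strain, yjdi363, to spotted PCR products of the yeast genome, and the deposited values are log2 ratios. There were 7 groups of 2 arrays. FHT-WT1 (strain yjdi353), with a WT in its name that was read as wild type, served as the control, DT1 (yjdi355), TF1 (yjdi357), HT4 (yjdi359) and PB1 (yjdi361) were the construct strains, yjdi381 was labelled null, and the homotypic pair was the reference hybridised with itself. Per the labels' protocol, cultures grew in leucine-free medium with 3% raffinose to an OD600 of 0.7. They received 2% galactose for 30 min at 25 °C to induce the TAF1 constructs, and were then held at 37 °C for 45 min, the reference included. Neither the construct codes nor the chromosomal TAF1 allele are explained in the labels, and no label says if paired arrays stem from different cultures, so p-values reflect only how far paired arrays differ, and this may be technical error alone.

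Glycolysis splits hexose into pyruvate and yields ATP, and fermentation turns pyruvate into ethanol and restores the NAD+ that glycolysis uses. In budding yeast the messages of the central enzymes are among the most abundant in the cell. Many of their promoters are bound by Gcr1, which works with Gcr2 and with Rap1, while Tye7, a basic helix-loop-helix protein, activates glycolytic genes as well.

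BDH2, a putative butanediol dehydrogenase gene, was higher than in FHT-WT1 in all 4 construct strains and the null strain. ADH7, an NADPH-dependent alcohol dehydrogenase gene, was lower in DT1, HT4, PB1 and the null strain, and in TF1 its difference was not called. Relative to the array median, most genes of central glycolysis lay moderately above FHT-WT1. In HT4, 11 of the 33 genes rose, BDH2 and TYE7 among them, against 4.9% of all genes. With arrays as deposited, BDH2 and TYE7 kept this call and the others that rose lost it. After quantile normalisation BDH2 lost its call in all 5 strains and TYE7 lost its call in HT4. The call of TYE7 in HT4 was also lost without the dye term. TYE7 was highest in HT4, and its values on the null strain arrays lay on either side of FHT-WT1. GCR1, GCR2, HXK1, HXK2 and most alcohol dehydrogenase genes were not called in any of the 5 strains.

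Array 1 of each strain carried the strain in Cy5 and array 2 carried it in Cy3. Each array was centred on its median over all genes, and values below are centred log2 ratios. Higher and lower are thus relative to the median gene of an array. The scale of the deposited ratios, which were corrected through spiked B. subtilis RNA, is not kept. The medians removed were -0.17 and -0.13 in HT4, 0.07 and 0.04 in FHT-WT1 and 0.03 and 0.21 in PB1. They were 0.41 and -0.18 in the null strain, 0.21 and -0.04 in TF1 and -0.10 and -0.11 in DT1. No label states which way the ratios run. They were taken as strain over reference because TAF1 lay at -3.52 and -3.46 on the null strain arrays, against -0.06 to -1.06 on the other strain arrays, and every higher or lower value rests on this choice. Arrays held 6935 to 6971 features with a value. The median distance of a gene from the array median was 0.103 and 0.139 on the FHT-WT1 arrays and 0.0855 and 0.105 on the homotypic arrays, against 0.177 to 0.257 on the arrays of the other 5 strains.

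Most genes of central glycolysis differed with the dye orientation, also where the reference was hybridised with itself. On homotypic array 1, 29 of the 33 genes lay above the array median, with a median of 0.29, and on homotypic array 2, 30 lay below it, with a median of -0.25. TDH1, which encodes a glyceraldehyde-3-phosphate dehydrogenase, lay at 0.61 and -0.53 on these arrays, and GPM1, the phosphoglycerate mutase gene, at 0.69 and -0.34. In contrast, ADH7 lay at -0.14 and -0.10 and BDH2 at 0.05 and -0.13. Over all strains the difference between strain in Cy5 and strain in Cy3 was called for 18 of the 33 genes, all of them higher in Cy5 (limma adjusted p under 0.05), against 35.0% of all genes called and 17.3% called higher. It was largest for TDH2 (1.02 ± 0.08 SE), TDH1 (0.95 ± 0.09) and GPM1 (0.92 ± 0.08), with a limma, Benjamini-Hochberg adjusted p no higher than 5.16e-05. ADH7 (0.03 ± 0.06) and BDH2 (-0.06 ± 0.08) were not called. The dye orientation is a term of the fit in the results below, and the 2 orientations are given side by side. Dye and array set cannot be told apart, because array 1 and array 2 also carry different number ranges in their titles.

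**Figure D1:**
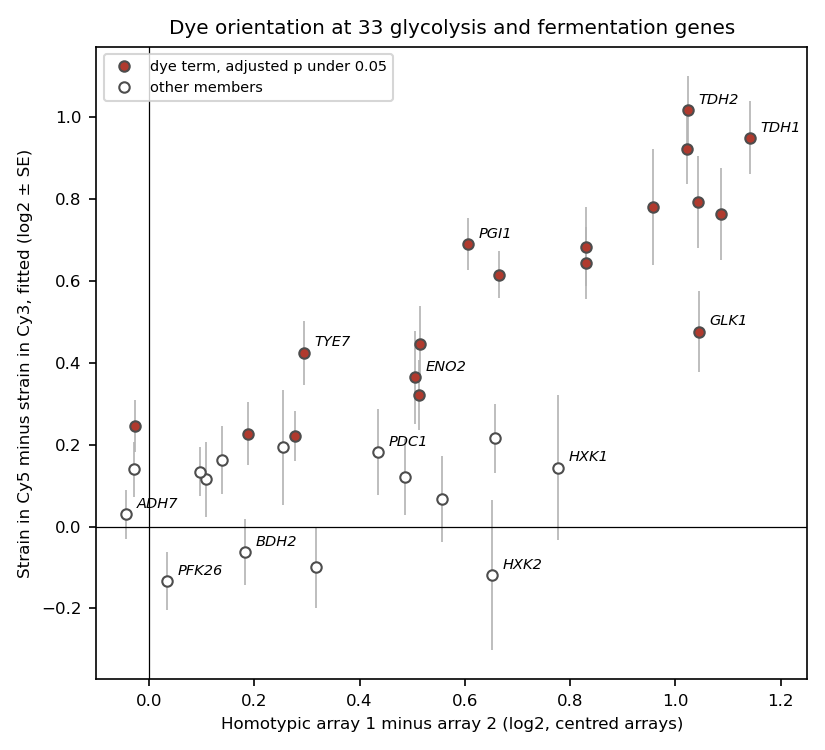
Each point is 1 of the 33 genes, with the difference between homotypic array 1 and array 2 (log2, centred arrays) on the horizontal axis and the fitted difference between strain in Cy5 and strain in Cy3 (log2, bars SE) on the vertical axis. Filled points are the 18 genes called for dye orientation. The fit includes the homotypic arrays, so the axes share these arrays and are not independent. TDH1 and TDH2 lie at the upper right, while ADH7 and BDH2 lie near 0 on both axes.

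**Figure D2:**
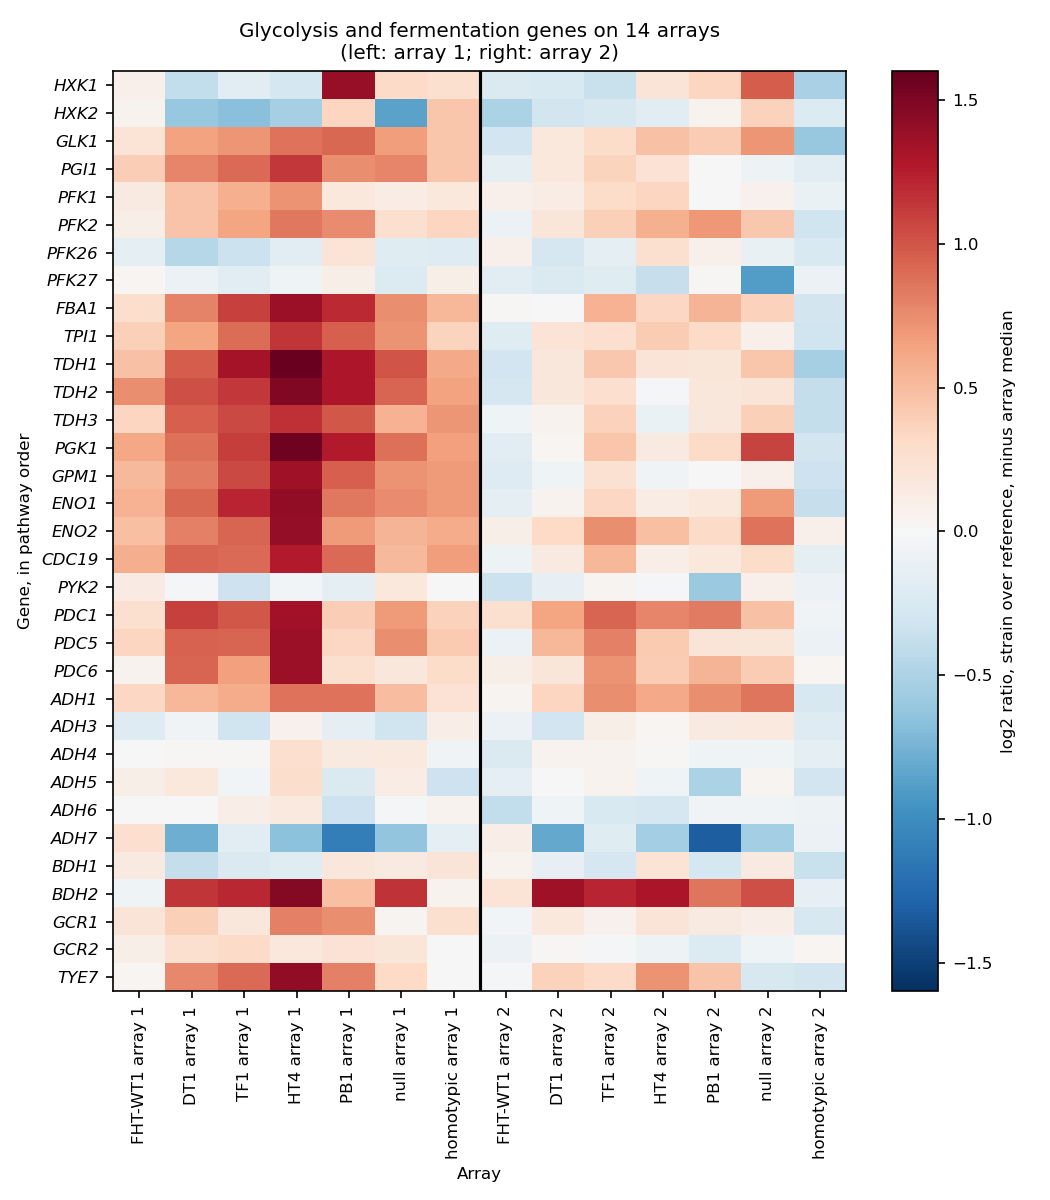
Centred log2 ratios of strain over reference for the 33 genes (rows, in list order) on the 14 arrays (columns, array 1 of each group left of the black line and array 2 right of it). Red is above and blue below the array median. BDH2 is red and ADH7 blue on both arrays of DT1, HT4, PB1 and the null strain, while the central enzymes are redder on array 1 than on array 2.

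The 5 strains, that is the construct strains and the strain labelled null, were each compared with FHT-WT1 at these genes. They share the FHT-WT1 arrays, so an unusual value there enters all 5. In HT4, 12 of the 33 genes were called (36.4%, against 11.7% of all genes), 11 higher (against 4.9%) and 1 lower (against 6.81%). In PB1, 8 of the 33 were called (24.2%, against 7.35%), 7 higher (against 2.71%) and 1 lower (against 4.64%). In TF1, 7 were called (21.2%, against 3.72%), all 7 higher (against 1.1%) and 0 lower (against 2.62%). In the null strain, 4 were called (12.1%, against 6.02%), 3 higher (against 1.9%) and 1 lower (against 4.12%). In DT1, 2 were called (6.06%, against 0.903%), 1 higher (against 0.199%) and 1 lower (against 0.705%). Counted together, 12 of the 33 genes, ADH7 and BDH2 among them, were called in at least 1 strain (36.4%, against 16.5% of all genes) and 21 in none.

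The median difference from FHT-WT1 over the 33 genes was 0.48 in HT4, 0.48 in TF1, 0.32 in PB1, 0.25 in DT1 and 0.23 in the null strain, while the median over all genes was -0.01 in each. With the strain in Cy5 the median in HT4 was 0.68 and with the strain in Cy3 it was 0.31. In TF1 both orientations gave similar medians (0.43 and 0.45), as did PB1 (0.32 and 0.30) and DT1 (0.28 and 0.21), and in the null strain the medians were 0.16 and 0.32. Between 23 and 25 of the 33 genes were higher than FHT-WT1 in both orientations, that is 69.7% to 75.8%, against 30.0% of all genes in the null strain, 31.5% in DT1 and PB1, 31.8% in TF1 and 32.3% in HT4. The medians over both orientations stayed above 0 when arrays were used as deposited, scaled to equal spread or quantile normalised. The counts of called genes moved by over 1.5 times. No share of all genes is given beside the changed counts, so they do not show whether calls fell at all genes alike. With arrays scaled to equal spread, 3 genes were called in HT4, 1 each in DT1 and PB1, and 0 in TF1 and the null strain. Without FHT-WT1 array 1, 4 were called in HT4, 1 in PB1, 1 in TF1 and 0 in the null strain, and without array 1 of the null strain 10 were called in that strain.

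**Figure D3:**
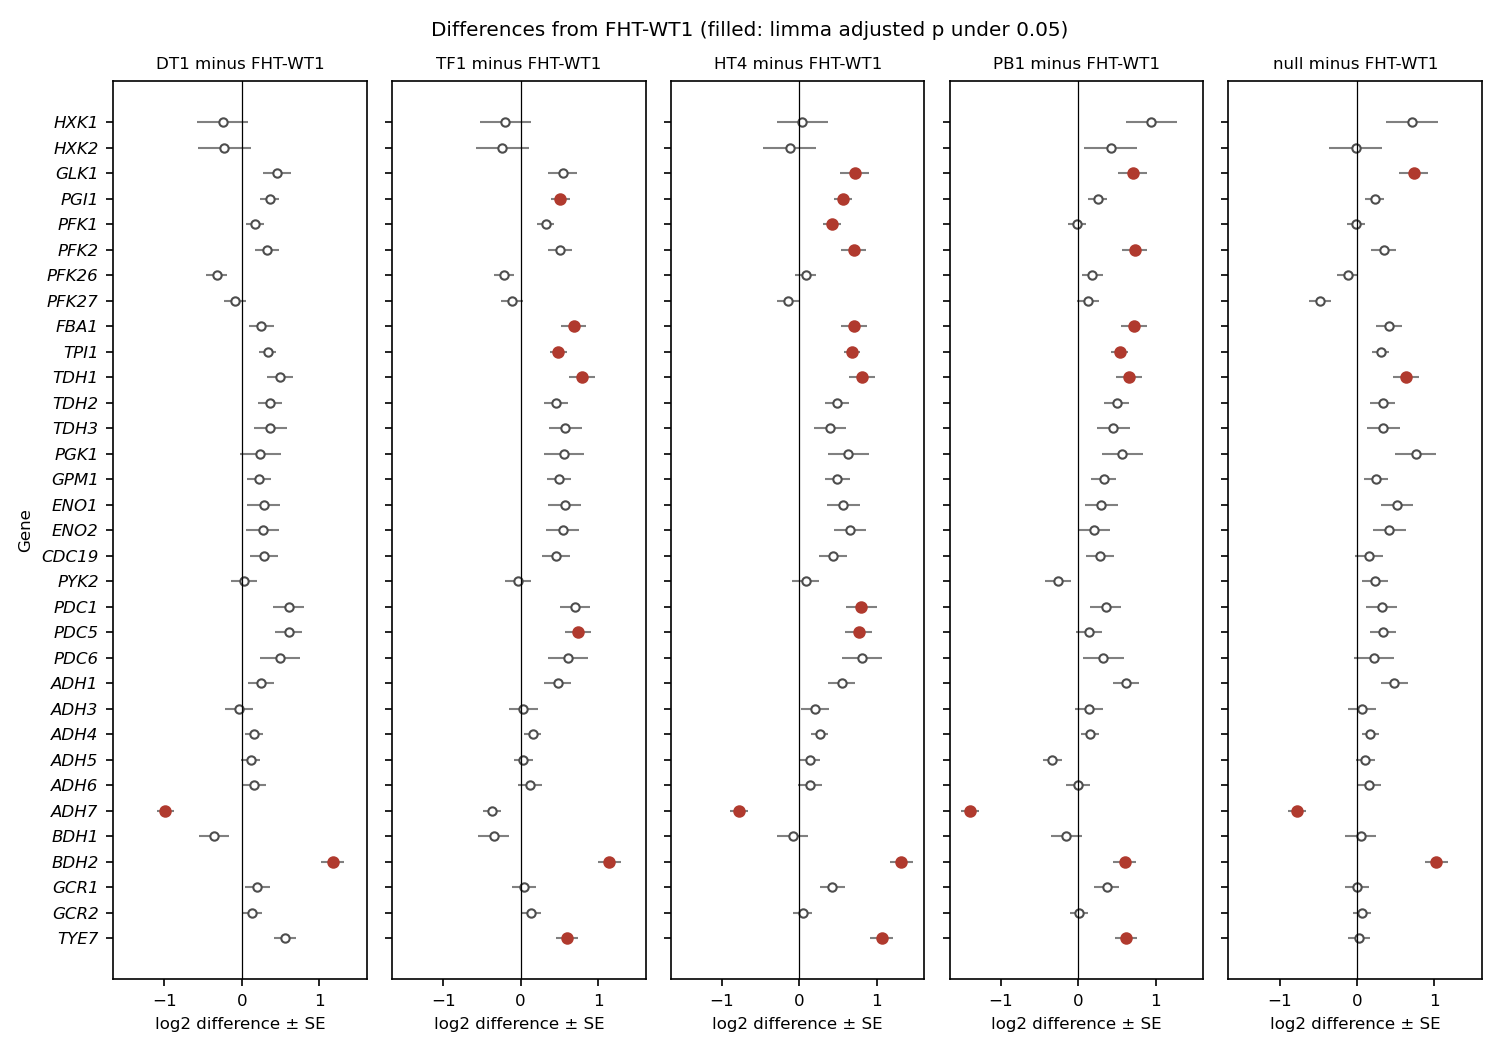
Differences from FHT-WT1 for the 33 genes, with 1 panel for each of the 4 constructs and 1 for the null strain (log2 difference, bars SE, n = 2 arrays per group). Filled points are called by limma. BDH2 is filled in all 5 panels and ADH7 in 4, and the largest number of filled points, 12, is in HT4.

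The hexose kinases phosphorylate glucose and fructose at the entry to the pathway. GLK1, the glucokinase gene, lay at 0.22 and -0.31 on the FHT-WT1 arrays, at 0.67 and 0.70 in the null strain, at 0.87 and 0.47 in HT4 and at 0.92 and 0.40 in PB1. Both arrays of these strains lay above both FHT-WT1 arrays. GLK1 rose by 0.73 ± 0.18 in the null strain, 0.71 ± 0.18 in HT4 and 0.70 ± 0.18 in PB1 (limma, Benjamini-Hochberg adjusted p = 0.0386, 0.028 and 0.0397). HXK1, the hexokinase gene that glucose represses, lay at 1.40 and 0.35 in PB1 and at 0.31 and 0.97 in the null strain. It lay at 0.08 and -0.23 in FHT-WT1 and between -0.40 and 0.21 in DT1, TF1 and HT4. The difference from FHT-WT1 was 0.94 ± 0.33 in PB1 and 0.71 ± 0.33 in the null strain and was not called (limma, Benjamini-Hochberg adjusted p = 0.101 and 0.213). HXK2, the main hexokinase gene on glucose, ranged from -0.85 on null strain array 1 to 0.37 on null strain array 2, the widest gap between 2 arrays of a strain in this group of 3, and was not called in any strain.

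In upper glycolysis, HT4 was the strain in which all 5 genes were called higher, by 0.42 to 0.70. All 5 also lay above FHT-WT1 in TF1 (0.32 to 0.68, 3 called) and in DT1 (0.175 to 0.36, 0 called). Between HT4 and the null strain 0 of these 5 were called. TPI1, the triosephosphate isomerase gene, lay at 0.38 and -0.19 in FHT-WT1 and at 1.14 and 0.40 in HT4. With each array compared within its orientation, the strain was higher both times, by 0.76 and 0.59. TPI1 rose by 0.68 ± 0.11 in HT4, 0.53 ± 0.11 in PB1 and 0.49 ± 0.11 in TF1 (limma, Benjamini-Hochberg adjusted p = 0.00384, 0.0145 and 0.0333). FBA1, the aldolase gene, lay at 0.28 and 0.01 in FHT-WT1, 1.37 and 0.33 in HT4, 1.20 and 0.54 in PB1 and 1.10 and 0.56 in TF1. It rose by 0.70 ± 0.16 in HT4, 0.72 ± 0.16 in PB1 and 0.68 ± 0.16 in TF1 (limma, Benjamini-Hochberg adjusted p = 0.0183, 0.0239 and 0.044). PGI1, the phosphoglucose isomerase gene, lay at 0.39 and -0.15 in FHT-WT1, 1.13 and 0.24 in HT4 and 0.91 and 0.36 in TF1, so that array 2 of both strains lay below FHT-WT1 array 1. It rose by 0.56 ± 0.12 in HT4 and 0.51 ± 0.12 in TF1 (limma, Benjamini-Hochberg adjusted p = 0.0126 and 0.0389). The 2 subunits of phosphofructokinase, the enzyme of the committed step, did not move alike in PB1, where PFK2 rose by 0.73 ± 0.16 (0.76 and 0.70 on the 2 arrays, against 0.10 and -0.10 in FHT-WT1) and PFK1 lay at -0.02 ± 0.12 from FHT-WT1. The difference between PFK1 and PFK2 was not tested. In HT4 both were called, with 0.42 ± 0.12 for PFK1 and 0.70 ± 0.16 for PFK2 (limma, Benjamini-Hochberg adjusted p = 0.0349 and 0.0157). PFK26 and PFK27, which encode the kinases that make an allosteric activator of phosphofructokinase, were not called, with differences between -0.48 and 0.18 over the 5 strains. The lowest value of PFK27, -0.89, was on null strain array 2, against -0.22 on array 1.

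Of 9 genes of lower glycolysis, TDH1 was called and the other 8 were not. TDH1 lay at 0.47 and -0.30 in FHT-WT1, 1.58 and 0.20 in HT4, 1.33 and 0.44 in TF1, 1.30 and 0.19 in PB1, and 1.0 and 0.44 in the null strain. On every strain array it was higher than on the FHT-WT1 array of the same orientation, but array 2 of a strain lay below FHT-WT1 array 1 each time. TDH1 rose by 0.81 ± 0.17 in HT4, 0.80 ± 0.17 in TF1, 0.66 ± 0.17 in PB1 and 0.64 ± 0.17 in the null strain (limma, Benjamini-Hochberg adjusted p = 0.0115, 0.0284, 0.0358 and 0.0458). Its near-identical paralogs TDH2 and TDH3, which carry most of the enzyme's activity during growth, lay 0.33 to 0.50 and 0.34 to 0.58 above FHT-WT1 over the 5 strains and were not called. PCR products of TDH1, TDH2 and TDH3, of ENO1 and ENO2 and of PDC1 and PDC5 can bind each other's transcripts, so the values of single paralogs are uncertain. PGK1 (phosphoglycerate kinase), GPM1, ENO1, ENO2 (enolases) and CDC19, the main pyruvate kinase gene, lay 0.15 to 0.76 above FHT-WT1 in each of the 5 strains, with limma, Benjamini-Hochberg adjusted p of at least 0.0656. For PGK1 in the null strain the 2 arrays lay at 0.88 and 1.08, against 0.62 and -0.18 in FHT-WT1, a difference of 0.76 ± 0.26 (adjusted p = 0.109). PYK2, the pyruvate kinase gene that glucose represses, showed no such offset, with differences from -0.26 in PB1 to 0.23 in the null strain.

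Pyruvate decarboxylase, which makes acetaldehyde, is encoded by PDC1, the main gene, by PDC5 and by the weakly expressed PDC6. PDC1 lay at 0.26 on both FHT-WT1 arrays, at 1.34 and 0.78 in HT4, 0.99 and 0.93 in TF1 and 1.09 and 0.63 in DT1. No array of these 3 strains overlapped FHT-WT1. PDC1 rose by 0.80 ± 0.20 in HT4 (limma, Benjamini-Hochberg adjusted p = 0.0222), and the differences of 0.70 ± 0.20 in TF1 and 0.60 ± 0.20 in DT1 were not called (adjusted p = 0.0716 and 0.155). PDC5 rose by 0.76 ± 0.17 in HT4 and 0.74 ± 0.17 in TF1 (limma, Benjamini-Hochberg adjusted p = 0.0157 and 0.0389). PDC6 lay 0.81 ± 0.26 above FHT-WT1 in HT4 (adjusted p = 0.0656). In PB1 and the null strain the 3 genes differed from FHT-WT1 by 0.14 to 0.35, with none called.

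Most alcohol dehydrogenase genes stayed near the array median. ADH1, which encodes the main enzyme that reduces acetaldehyde to ethanol, lay at 0.34 and 0.05 in FHT-WT1, 0.87 and 0.75 in PB1 and 0.50 and 0.86 in the null strain. Its differences from FHT-WT1 were 0.25 to 0.62 and missed the threshold, with the lowest limma, Benjamini-Hochberg adjusted p, 0.0502, in PB1. ADH3, the mitochondrial enzyme's gene, ADH4, ADH5 and ADH6 lay within 0.34 of FHT-WT1 in each strain, and the lowest of these differences was that of ADH5 in PB1 (-0.34 ± 0.13, adjusted p = 0.119).

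Among the alcohol dehydrogenase genes of the list, only ADH7 was called. It lay at 0.27 and 0.10 on the FHT-WT1 arrays and at -0.14 and -0.10 on the homotypic arrays. In PB1 it lay at -1.10 and -1.32, in DT1 at -0.78 and -0.82, in HT4 at -0.65 and -0.54, in the null strain at -0.64 and -0.55, and in TF1 at -0.17 and -0.19. From FHT-WT1 at the top to PB1 at the bottom, the 7 groups stood in the same order on both arrays, except that HT4 and the null strain, with nearly equal values, changed places. Against FHT-WT1, ADH7 fell by 1.40 ± 0.11 in PB1, a 2.64-fold difference, by 0.99 ± 0.11 in DT1, by 0.78 ± 0.11 in HT4 and by 0.78 ± 0.11 in the null strain (limma, Benjamini-Hochberg adjusted p = 9.83e-05, 0.00294, 0.00227 and 0.0139). In TF1 the difference of -0.37 ± 0.11 was not called (adjusted p = 0.097). ADH7 was also called in the tests of any difference among the 6 strains and among the 4 constructs (limma F test, Benjamini-Hochberg adjusted p = 0.00079 and 0.00562), where 4.01% and 0.379% of all genes were called. The latter call was lost without either TF1 array and with arrays scaled to equal spread or quantile normalised. The fall in PB1 was called whichever array was left out and under each scaling, and that in DT1 was lost without DT1 array 2. The fall in HT4 was lost after quantile normalisation. The fall in the null strain was lost without FHT-WT1 array 1 or null strain array 2, with arrays as deposited and under both other scalings. Against the homotypic pair in place of FHT-WT1, a comparison chosen after seeing the data, ADH7 lay at -1.09 in PB1, -0.68 in DT1, -0.48 in HT4 and -0.47 in the null strain. In TF1 the mean of ADH7 was -0.18, close to the -0.12 of the homotypic pair, while that of FHT-WT1 was 0.18. The gene next to ADH7 on 1 side, PAU3, lay between 0.02 and 0.63 on average in the 6 strains, and the gene on the other side, RDS1, between -0.32 and 0.22.

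BDH2 moved the other way. It lay at -0.07 and 0.22 in FHT-WT1, and at 1.47 and 1.31 in HT4, 1.14 and 1.36 in DT1, 1.21 and 1.22 in TF1, 1.15 and 1.03 in the null strain and 0.48 and 0.86 in PB1. All 10 arrays of these 5 strains lay above both FHT-WT1 arrays and above both homotypic arrays. BDH2 rose by 1.32 ± 0.15 in HT4, 1.18 ± 0.15 in DT1, 1.14 ± 0.15 in TF1, 1.02 ± 0.15 in the null strain and 0.60 ± 0.15 in PB1 (limma, Benjamini-Hochberg adjusted p = 0.00124, 0.00601, 0.00454, 0.0139 and 0.0346), that is by 1.51-fold in PB1 to 2.49-fold in HT4. It was the only 1 of the 33 genes called in all 5 strains. The difference among the 4 constructs was not called for BDH2 (limma F test, adjusted p = 0.151). BDH1, its neighbour on the chromosome, which encodes the enzyme that converts acetoin to butanediol, lay at 0.14 and 0.06 in FHT-WT1 and within 0.36 of it in each strain, and was not called. GDH3, the neighbour on the other side, lay between -0.27 and 0.16 on average. With arrays scaled to equal spread BDH2 was called in HT4 but not in the other 4 strains, and after quantile normalisation in none of the 5. It lost its call without DT1 array 2 in DT1, TF1 array 1 in TF1, FHT-WT1 array 1 or null strain array 2 in the null strain, and FHT-WT1 array 1, PB1 array 2 or either TF1 array in PB1. Without the dye term it lost its call in the null strain and PB1, and with arrays as deposited in PB1.

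**Figure D4:**
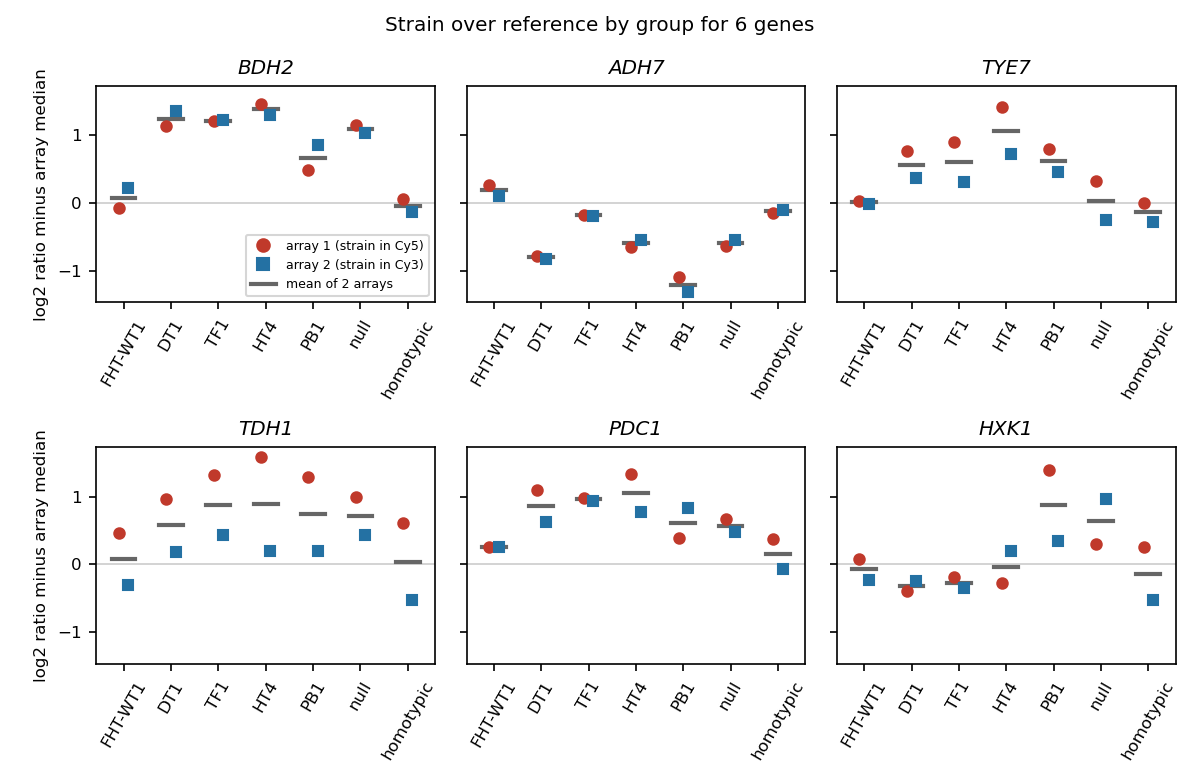
Centred log2 ratios of strain over reference for BDH2, ADH7, TYE7, TDH1, PDC1 and HXK1 in the 7 groups. Circles are array 1 (strain in Cy5), squares array 2 (strain in Cy3) and lines the mean of the 2 arrays. BDH2 and ADH7 have arrays close together in most groups, TDH1 has circles above squares in every group, and HXK1 has its highest value, 1.40, on PB1 array 1.

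Among the regulators, TYE7 changed and GCR1 and GCR2 were not called. TYE7 lay at 0.03 and -0.01 in FHT-WT1, 1.42 and 0.72 in HT4, 0.91 and 0.30 in TF1, 0.80 and 0.45 in PB1, 0.77 and 0.37 in DT1 and 0.32 and -0.26 in the null strain. Both arrays of each construct strain lay above both FHT-WT1 arrays, whereas those of the null strain lay on either side of them. TYE7 rose by 1.06 ± 0.15 in HT4, a 2.09-fold difference, by 0.62 ± 0.15 in PB1 and by 0.60 ± 0.15 in TF1 (limma, Benjamini-Hochberg adjusted p = 0.00192, 0.0282 and 0.0456). In DT1 the difference was 0.56 ± 0.15 (adjusted p = 0.0949) and in the null strain 0.02 ± 0.15 (adjusted p = 0.946). The latter joins 0.29 with the strain in Cy5 and -0.24 with it in Cy3. TYE7 was also called for dye orientation (0.42 ± 0.08, limma, Benjamini-Hochberg adjusted p = 0.0021). GCR1 lay at 0.21 and -0.05 in FHT-WT1. It had its highest values on HT4 array 1 (0.81) and PB1 array 1 (0.75), against 0.20 and 0.15 on array 2 of these strains, and its largest difference from FHT-WT1 was 0.42 ± 0.16 in HT4 (adjusted p = 0.105). GCR2 lay within 0.14 of FHT-WT1 in every strain.

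Which array was left out decided many of the calls on the central enzymes. In HT4, BDH2, TYE7, ADH7 and TPI1 kept their call whichever array was left out, but TPI1 lost it with arrays as deposited, scaled or quantile normalised and without the dye term, and TYE7 after quantile normalisation and without the dye term. The others lost it without FHT-WT1 array 1 or HT4 array 1, PDC1, PDC5, PFK1, PFK2 and GLK1 also without FHT-WT1 array 2, PFK1, PFK2 and GLK1 also without HT4 array 2, and PFK1 also without either TF1 array. In PB1, TPI1, FBA1 and TYE7 lost their call without FHT-WT1 array 1 or either PB1 array, PFK2 also without FHT-WT1 array 2, and TDH1 and GLK1 without any of these and without either array of DT1 or TF1 as well, and GLK1 also without either HT4 array. In TF1, TDH1 and TPI1 lost it without any 1 of the FHT-WT1 or TF1 arrays, and PDC5, PGI1, FBA1 and TYE7 without FHT-WT1 array 1 or any 1 array of DT1, TF1 or the homotypic pair, and PDC5 and PGI1 also without FHT-WT1 array 2. In the null strain, GLK1 and TDH1 lost theirs without any 1 array of FHT-WT1, DT1 or TF1 and without null strain array 2, GLK1 also without either HT4 array and TDH1 without either homotypic array. The median of the 33 genes was 0.21 and -0.09 on the FHT-WT1 arrays and 0.87 and 0.20 on the HT4 arrays.

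The 4 constructs were set against the null strain, which also tests whether their differences from FHT-WT1 are unlike those of the null strain. TYE7 rose by 1.04 ± 0.15 in HT4 (limma, Benjamini-Hochberg adjusted p = 0.00742), where 0.506% of all genes were called, and it was the only member called there. It lay 0.53 to 0.60 above the null strain in DT1, TF1 and PB1 and was not called (adjusted p = 0.33, 0.542 and 0.0745). ADH7 fell by 0.62 ± 0.11 in PB1 (limma, Benjamini-Hochberg adjusted p = 0.0219), where 1.17% of all genes were called. In DT1 and TF1 limma called 0 of the 33 genes, and 0.0723% and 0.0542% of all genes. At an unadjusted p under 0.05 there were 3 of the 33 in DT1, against 10% of all genes, and 7 in TF1, against 5.96%. HXK1 lay 0.96 below the null strain in DT1 and 0.91 below it in TF1, with an SE of 0.33, and was not called (adjusted p = 0.379 and 0.772). The median difference of the 33 genes from the null strain was -0.02 in DT1, 0.12 in TF1, 0.17 in HT4 and 0.04 in PB1. With the strain in Cy5 and in Cy3 it was 0.42 and -0.04 in HT4, 0.06 and -0.16 in DT1 and 0.23 and -0.07 in PB1, so that its direction depended on the orientation in these 3 strains, while in TF1 it was 0.18 and 0.02. With arrays as deposited the median in HT4 was -0.09. TYE7 in HT4 lost its call without HT4 array 1 or null strain array 2, and ADH7 in PB1 without either PB1 array or null strain array 2. Both were lost with arrays as deposited, scaled to equal spread or quantile normalised, without the dye term, and with the sign of homotypic array 2 reversed.

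Between FHT-WT1 and the homotypic pair, limma called 0 of the 33 genes and 0% of all genes, with 2 of the 33 and 4.97% of all genes at an unadjusted p under 0.05. Those 2 were ADH7, 0.30 ± 0.11 higher in FHT-WT1, and ADH5, 0.29 ± 0.13 higher (limma, Benjamini-Hochberg adjusted p = 0.933 for each). The median of the 33 genes was 0.04, with -0.06 between arrays 1 and 0.15 between arrays 2. No label says which way homotypic array 2 was turned. With its sign reversed the median was -0.18.

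Genes of neighbouring pathways were counted from lists of related genes. Beside these counts, 4.9% of all genes rose in HT4, 1.1% in TF1, 1.9% in the null strain, 0.199% in DT1 and 2.71% in PB1. Of 7 genes between acetaldehyde and acetyl-CoA, 4 rose in HT4, 3 in TF1, 2 in the null strain, 1 in DT1 and 0 in PB1. ALD4, the mitochondrial aldehyde dehydrogenase gene, rose by 1.01 ± 0.17 in TF1, 0.89 in DT1, 0.88 in HT4 and 0.85 in the null strain (limma, Benjamini-Hochberg adjusted p = 0.0129, 0.0358, 0.0095 and 0.0254). It lay at 0.17 and -0.20 in FHT-WT1 and at 0.41 and 0.47 in PB1. Of 8 genes of gluconeogenesis and the glyoxylate cycle, 4 rose in the null strain, 3 in HT4, 2 in TF1, 1 in DT1 and 0 in PB1, and none fell. MAE1, the malic enzyme gene, which makes pyruvate, rose by 1.21 ± 0.21 in HT4, 1.06 in DT1 and 0.98 in TF1 (limma, Benjamini-Hochberg adjusted p = 0.00474, 0.0353 and 0.0284). Of 4 genes of the glycerol branch, 2 rose in PB1, 2 in HT4, 1 in the null strain and 0 in TF1 and DT1. GPD1, a glycerol-3-phosphate dehydrogenase gene, rose by 1.02 ± 0.16 in the null strain, 0.97 in HT4 and 0.91 in PB1 (limma, Benjamini-Hochberg adjusted p = 0.0173, 0.00429 and 0.00839). GPP2, a glycerol phosphatase gene, rose by 0.87 ± 0.17 in HT4 and 0.68 in PB1 (adjusted p = 0.0101 and 0.0381). Of 10 genes of the pentose phosphate pathway, 3 rose in HT4 (GND2, SOL4 and TKL2), and GND2, the minor phosphogluconate dehydrogenase gene, fell by 0.49 ± 0.14 in PB1 (limma, Benjamini-Hochberg adjusted p = 0.0488).

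Of 10 genes of minor isozymes, the enolase-related ERR1, ERR2 and ERR3 rose in HT4 and TF1. ERR2 lay at 0.23 and 0.04 in FHT-WT1, 1.62 and 1.46 in HT4, 1.05 and 0.71 in TF1 and 0.11 and -0.24 in PB1. In HT4, ERR1, ERR2 and ERR3 rose by 1.31 ± 0.12, 1.40 ± 0.14 and 1.12 ± 0.12 (limma, Benjamini-Hochberg adjusted p = 0.000323, 0.000465 and 0.00122), and in TF1 by 0.51, 0.74 and 0.61. These 3 genes are close copies of each other and can share signal on the array, so they count as 1 observation. YPR1, an aldo-keto reductase gene, fell in TF1, HT4 and PB1, by 0.57, 0.53 and 0.62. ARI1, an NADPH-dependent aldehyde reductase gene, fell by 0.62 ± 0.13 in the null strain and 0.48 ± 0.13 in PB1 (limma, Benjamini-Hochberg adjusted p = 0.0293 and 0.0495), where 4.12% and 4.64% of all genes fell. Of 6 other regulators, RGT1, a repressor of hexose transporter genes, rose in HT4 by 0.51 ± 0.14 (limma, Benjamini-Hochberg adjusted p = 0.0324), and RAP1, PDC2, MIG1, SNF1 and REG1 were not called in any of the 5 strains.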

How the data were processed

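The authors deposited 1 table of log2 ratios for 7056 features on 14 two-channel arrays. Per the labels' series text, dye swaps were mode normalised with R, then corrected through spiked B. subtilis RNA, and image analysis and filters are not given in the sources used here. Of the features, 5579 have 1 gene symbol in the platform annotation and 1477 have none. They gave 5548 genes (5543 matched to the R64 annotation, used for names and neighbours), of which 5535 had a value on all arrays and were tested. Features of a gene were averaged and each array was centred on its median. The linear model (limma 3.58.1, R 4.3.3; lmFit and eBayes) had 7 groups and a dye orientation term, 6 residual and 5.98 prior degrees of freedom, and two-sided tests with Benjamini-Hochberg adjustment over all tested genes at 0.05. The homotypic arrays took the orientation of the strain arrays with their title number. The fit was tested on simulated data. Members and lists were chosen with earlier results of these data known. All 33 members are named, with a test for those called and up to 4 more per comparison by the moderated statistic. No intensities were analysed, so dim features could not be filtered and precision is limited by 2 arrays per group. Promoter motifs, named in the plan, were not searched because no sequence was used here.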

Additional observations from a re-analysis of the deposited data

Results flagged for a closer look

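Some differences from FHT-WT1 were unlike between strains in a test of the difference itself, and the values are given without an explanation. Between HT4 and the null strain, TYE7 differed by 1.04, ERR1 by 1.01, ERR2 by 1.14, ERR3 by 0.93 and ARI1, an NADPH-dependent aldehyde reductase gene, by 0.73, each higher in HT4 (limma, Benjamini-Hochberg adjusted p = 0.00742, 0.00419, 0.00419, 0.00656 and 0.0388). ARI1 lay 0.10 ± 0.13 above FHT-WT1 in HT4, not called, and 0.62 below it in the null strain. Between PB1 and the null strain, ADH7 differed by -0.62 and GND2 by -0.73, both lower in PB1 (limma, Benjamini-Hochberg adjusted p = 0.0219 for each).

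Among the 4 constructs, a difference was called by the limma F test for ADH7 (Benjamini-Hochberg adjusted p = 0.00562), ERR1 (0.00342), ERR2 (0.00121), ERR3 (0.00342), GND2 (0.00342) and MLS1, the malate synthase gene of the glyoxylate cycle (0.0483). GND2 lay at 1.22 and 0.81 in HT4 and at -0.26 and -0.32 in PB1, so that its 2 arrays did not overlap. MLS1 lay at 0.80 and 1.22 in HT4 and at 0.70 and 1.23 in TF1. It lay at 0.08 and 0.72 in DT1 and at 0.02 and 0.62 in PB1. Both HT4 arrays lay above both arrays of DT1 and of PB1, and both TF1 arrays lay above both PB1 arrays. The arrays of HT4 overlapped with those of TF1, those of TF1 with DT1, and those of DT1 with PB1.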

How the results depend on the processing

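Of the counts of called members, 143 of the values with an array left out and 80 of those under other settings stayed within 1.5 times, while 39 and 40 moved. The median of the 33 genes stayed above that of FHT-WT1 in the 5 strains under every setting run, from 0.09 to 0.28 in DT1, 0.24 to 0.51 in TF1, 0.17 to 0.39 in PB1, 0.18 to 0.68 in HT4 and 0.10 to 0.33 in the null strain. Among the changed settings, the share of all genes called is given only for the homotypic pair as the control. The other counts therefore do not show whether calls fell at all genes or at the members alone. Against FHT-WT1, arrays as deposited called 1 member in TF1, 3 in PB1, 3 in HT4 and 1 in the null strain. Scaling to equal spread called 1 in PB1, 3 in HT4, 1 in DT1 and 0 in TF1 and the null strain, and quantile normalisation called 1 in PB1, 1 in DT1 and 0 in HT4, TF1 and the null strain. These scalings also shrink the strain arrays, whose spread is wider than that of the FHT-WT1 arrays. Against the null strain, arrays as deposited called 1 member in DT1 and 0 in HT4 and PB1, and both scalings and the fit without the dye term 0 in HT4 and PB1, as did reversing the sign of homotypic array 2. In the main fit, the F test among the 6 strains called 4 of the 33 genes (12.1%, against 4.01% of all genes). The F test among the 4 constructs called 1 (3.03%, against 0.379%). Under both scalings the former called 1, while the latter called 2 as deposited and 0 under both scalings.

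The arrays of a group are paired by dye swap. Without the dye term, that is with no replicate block, 2 members were called in HT4, 1 in PB1, 1 in TF1, 0 in the null strain and 2 in the test among the 6 strains. The leading number of the title as a random block (correlation 0.271) moved no count of members by over 1.5 times. Within title number 25, which holds an array of FHT-WT1 and of DT1, the median in DT1 was 0.28. In TF1, 3 were called without the homotypic arrays and 1 with the sign of homotypic array 2 reversed. With the homotypic pair as the control, chosen after seeing the data, 8 were called in the null strain (24.2%, against 17.4% of all genes), 5 in DT1 (15.2%, against 8.35%) and 11 in TF1 (33.3%, against 15.5%). In HT4 17 were called (51.5%, against 24.7%) and in PB1 11 (33.3%, against 20.9%). The share of all genes called was thus higher with this control in each of the 5 strains.

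With single arrays left out, counts ranged from 4 to 16 in HT4, 1 to 10 in PB1, 0 to 8 in TF1, 0 to 2 in DT1 and 0 to 10 in the null strain. Against the null strain they ranged from 0 to 2 in DT1, 0 to 1 in HT4 and 0 to 2 in PB1, and for the F tests from 3 to 16 and 0 to 1. A strain left with 1 array is assumed to vary like the other groups. Between FHT-WT1 and the homotypic pair, where no gene was called, signs reversed for ADH5 (-0.017 with homotypic array 2 reversed), PFK26 (-0.0257 as deposited and -0.0542 reversed) and ADH1 (-0.017 as deposited, -0.0502 reversed, and -0.0124 to 0.413 with single arrays left out, the lowest without homotypic array 2 and the highest without homotypic array 1). The cause of these changes was not tested. Signal over background was not analysed here, so how far dim features limit single genes is unknown.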
